A study of Mus musculus with 10 samples.

Results

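The surface of the colon absorbs salt and water with a small set of membrane proteins and enzymes, and 10 genes of that set were followed here in mouse intestinal RNA: the water channels Aqp8 and Aqp4, the carbonic anhydrases Car1, Car2 and Car4, the anion exchangers Slc26a3 and Slc26a2, the proton transporters Slc9a3 and Atp12a, and the phosphate transporter Slc20a1. They were chosen by name and for their function from the 19456 genes listed in at least 1 library. Earlier results of these data were known when they were chosen. All 10 were listed in all 10 libraries, and all 10 passed the filter on low counts that left 14072 genes to test. Levels are given as CPM (counts per 1000000) after scaling each library by the trimmed mean of M values (TMM), and as FPKM, which is also per gene length, where genes are compared with each other.

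Poly-A RNA was sequenced from flash-frozen intestine of C57BL/6 mice on the BGISEQ-500 platform, in 10 libraries. The wild-type (WT) and the transgenic (TG) mice were each studied untreated (3 libraries of each genotype) and after 2.5% dextran sulfate sodium (DSS) given by mouth (2 libraries of each genotype). DSS is a polymer that injures the colonic lining, and the submitters used it to model intestinal fibrosis. TG mice overexpress ITGB6, the beta subunit of an epithelial integrin that activates TGF-beta. The promoter of the transgene, the length of DSS treatment, the age and sex of the mice and the segment of intestine are not given in the sources used here. The labels number the replicates without saying that each is a separate animal, and the p-values therefore rest on between-library spread that may be technical.

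In the surface cells of the colon, cytosolic carbonic anhydrases turn carbon dioxide and water into protons and bicarbonate. Slc9a3 exports the protons in exchange for luminal sodium while Slc26a3 exports the bicarbonate in exchange for luminal chloride, so that sodium chloride enters the cell and water follows, in part through aquaporins. Atp12a, the catalytic subunit of the non-gastric proton-potassium pump, recovers potassium at the same apical membrane in the distal colon, and loss of SLC26A3 function in people causes a chloride-losing diarrhoea.

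Library depth was 15393859 to 18284704 summed expected counts. The human ITGB6 entry checked the genotype labels, at 3632 to 3913 CPM in untreated TG and 2201 to 2453 in TG after DSS against at most 1.13 in WT libraries. A list of 6 colon position markers summed to 315 to 438 CPM and a list of 8 small-intestinal markers to 198 to 497 CPM. Of the colon list Hoxb13 was at 145 to 229 CPM, and of the small-intestinal list the disaccharidase Lct reached at most 0.236 CPM, while Fabp2 (85.1 to 352 CPM) and Apob (19.4 to 191 CPM) were present in every library, so the lists do not settle the segment. The summed level of 6 epithelial markers was 13314 to 19009 CPM, against 11.2 to 47.3 for 6 smooth muscle and fibroblast markers. Xist, a transcript of female cells, was at most 0.421 CPM in all 6 untreated libraries and 307 to 739 in the 4 DSS libraries, while the Y-linked Kdm5d was 26.6 to 44.2 in untreated and 0 in DSS libraries. In these data DSS and sex cannot be told apart, and every comparison of DSS with untreated below is also one of female with male libraries. Untreated TG replicate 1 stood apart from its group (-59.7 on the second principal component, against -10.1 and -5.73), and calls that change without it are given beside the results. In bulk RNA, fewer cells of a type and less RNA per cell cannot be told apart.

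Promoter windows are shown because most of the members moved in the same direction after DSS in WT mice. RefSeq (GRCm38) held windows of 300 bases, from 250 before to 50 after a transcript start, for 5 of the 10 members. All lie on the plus strand and are written 5′ to 3′, at chr7:123462044-123462343 for Aqp8, chr11:84957504-84957803 for Car4, chr12:31437969-31438268 for Slc26a3, chr13:74121163-74121462 for Slc9a3 and chr2:129198523-129198822 for Slc20a1. Capitals mark matches, on either strand, to the E-box CACGTG, the letters TATAAA of the TATA box or the steroid receptor half-site TGTTCT.
Aqp8: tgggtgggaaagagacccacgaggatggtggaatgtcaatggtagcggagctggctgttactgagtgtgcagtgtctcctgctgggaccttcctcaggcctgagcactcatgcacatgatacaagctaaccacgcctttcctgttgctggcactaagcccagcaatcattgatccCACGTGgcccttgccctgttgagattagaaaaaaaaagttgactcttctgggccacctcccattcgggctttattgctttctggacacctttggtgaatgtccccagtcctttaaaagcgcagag
Car4: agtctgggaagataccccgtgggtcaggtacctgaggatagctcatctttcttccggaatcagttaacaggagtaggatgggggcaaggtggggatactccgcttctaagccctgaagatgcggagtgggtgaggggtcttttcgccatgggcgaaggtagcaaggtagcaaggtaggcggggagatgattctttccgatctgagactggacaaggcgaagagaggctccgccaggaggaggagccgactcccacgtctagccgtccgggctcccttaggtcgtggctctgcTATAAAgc
Slc26a3: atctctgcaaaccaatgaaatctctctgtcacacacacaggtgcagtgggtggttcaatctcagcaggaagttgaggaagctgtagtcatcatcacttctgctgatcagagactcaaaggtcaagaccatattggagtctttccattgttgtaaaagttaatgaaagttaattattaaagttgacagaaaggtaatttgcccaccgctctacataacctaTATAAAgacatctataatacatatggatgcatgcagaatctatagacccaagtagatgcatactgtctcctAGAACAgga
Slc9a3: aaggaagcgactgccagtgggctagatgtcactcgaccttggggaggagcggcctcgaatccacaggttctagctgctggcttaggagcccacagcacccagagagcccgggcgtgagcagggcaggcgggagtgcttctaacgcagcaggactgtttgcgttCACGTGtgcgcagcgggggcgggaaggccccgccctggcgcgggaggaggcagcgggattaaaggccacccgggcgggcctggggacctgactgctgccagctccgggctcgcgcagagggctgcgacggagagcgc
Slc20a1: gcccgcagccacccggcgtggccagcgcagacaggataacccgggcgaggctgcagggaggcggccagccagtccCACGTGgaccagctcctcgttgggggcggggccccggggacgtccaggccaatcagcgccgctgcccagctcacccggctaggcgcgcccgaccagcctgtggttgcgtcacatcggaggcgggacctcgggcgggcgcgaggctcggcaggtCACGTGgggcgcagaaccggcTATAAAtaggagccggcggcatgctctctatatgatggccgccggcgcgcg
The E-box, the core element of basic helix-loop-helix factors including those of the circadian clock, occurred in the windows of Aqp8, Slc9a3 and Slc20a1, which held it in a pair of copies, and in 7.15% of all 32851 windows. TATAAA occurred in Car4, Slc26a3 and Slc20a1 and in 13.6% of all windows. It began 30 bases before the transcript start in Slc26a3, 1 base before it in Slc20a1 and 42 bases after it in Car4. The half-site occurred in Slc26a3, where it reads AGAACA on the printed strand, in another window of Slc20a1 that is not shown, and in 19.0% of all windows. The letters TTTATG of CDX factors (11.9% of all windows) and CAAAGTC of HNF4 factors (4.44%) occurred in none of the members' windows. The windows differed widely in base composition, from 39.3% G and C in Slc26a3 to 73.0% in Slc20a1. None of these matches was tested as a binding site. The windows of Slc26a3 and Slc9a3 lie inside the span that RefSeq gives the gene.

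In WT mice 8 of the 10 transport genes fell after DSS, led by Slc20a1 (4.47-fold), Aqp8 (2.93-fold) and Slc26a3 (2.89-fold). Of all genes tested, 9.62% fell and 10.2% rose. In TG mice 1 fell (Slc9a3) and 2 rose (Car4 and Atp12a), where 5.48% of all genes tested passed. Without DSS, Atp12a, Slc20a1 and Car4 were lower in TG than in WT, where 3.70% of all genes tested passed. After DSS none passed the test between genotypes by edgeR, where 0.185% of all genes tested passed.

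**Figure D1:**
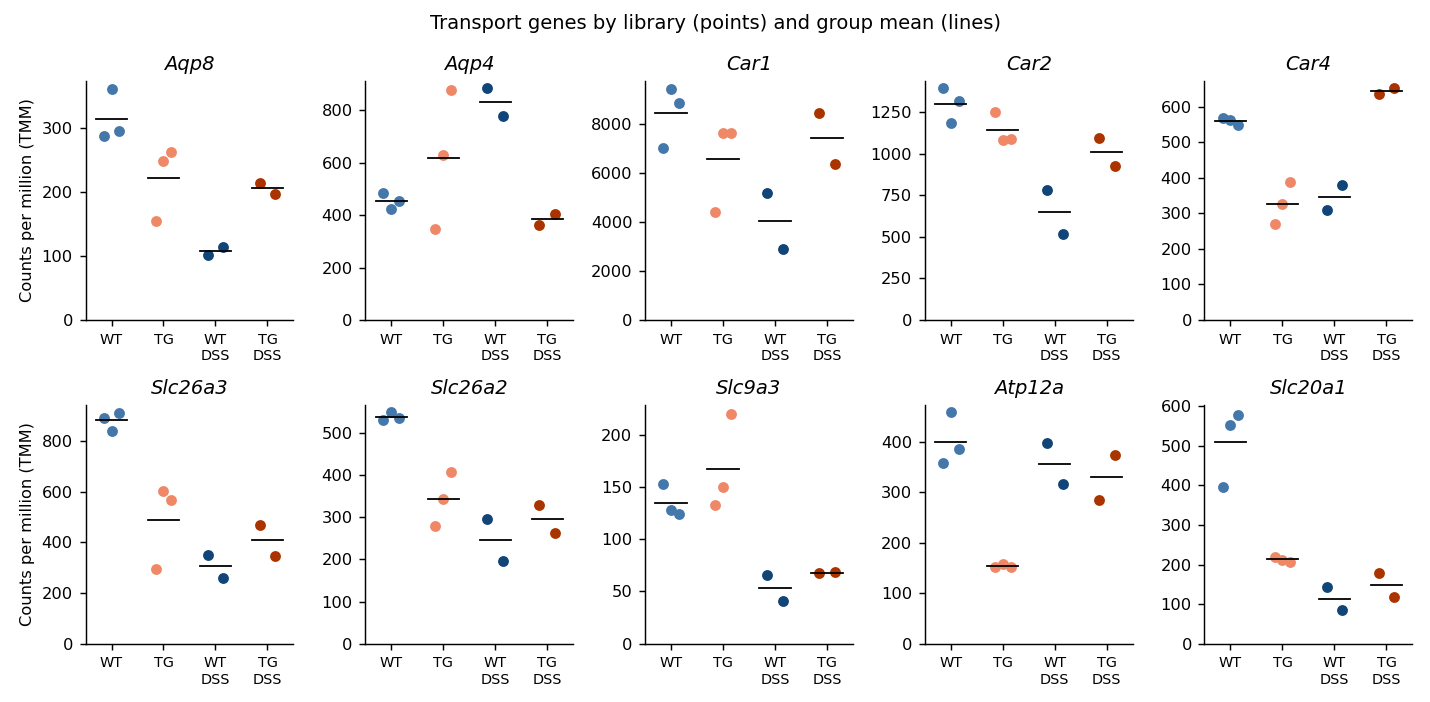
Level of each of the 10 transport genes in CPM on TMM-scaled libraries (y axis, linear, from 0, 1 panel per gene) by genotype and treatment (x axis, untreated at left, DSS at right). Points are libraries and lines are group means. Car4 is lower in untreated TG and WT after DSS than in the other groups, and Aqp4 is the gene whose WT libraries after DSS lie above the untreated ones.

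Aqp8 (Entrez 11833, chr7:123462294-123468003, GRCm38) encodes an apical water channel of surface colonocytes. Its level was 288, 360 and 296 CPM in the 3 untreated WT libraries and 154, 248 and 262 CPM in the 3 untreated TG libraries. With DSS it was 101 and 114 CPM in WT and 215 and 197 CPM in TG. Every untreated WT library lay above every library of the other groups, and both WT libraries after DSS lay below all others. Aqp8 was lower after DSS in WT (log2 fold change -1.55, SE 0.22, Benjamini-Hochberg adjusted p = 0.00159 by edgeR's quasi-likelihood test, as for every adjusted p below unless another tool is named). In TG the DSS difference was -0.11 (SE 0.21, adjusted p = 0.834), and the test of the difference between the 2 responses gave 1.44 (SE 0.29, adjusted p = 0.0591). TG and WT differed by -0.51 untreated (adjusted p = 0.158; -0.30 without untreated TG replicate 1) and by 0.94 after DSS (adjusted p = 0.175).

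Aqp4 (Entrez 11829, chr18:15389394-15410982) encodes a basolateral water channel. Its level was 483, 425 and 455 CPM in untreated WT and 347, 629 and 877 CPM in untreated TG. It was 884 and 776 CPM in WT after DSS and 360 and 406 CPM in TG after DSS. The WT libraries after DSS lay above the untreated WT ones and above both TG libraries after DSS, while untreated TG spanned both. No contrast of Aqp4 passed the test: the log2 fold change with DSS was 0.87 in WT (SE 0.28, adjusted p = 0.0559) and -0.69 in TG (SE 0.29, adjusted p = 0.225). Untreated TG replicate 1 decided several of its values. Without that library TG exceeded WT untreated by 0.73 (adjusted p = 0.0214), Aqp4 fell with DSS in TG by 0.97 on the log2 scale (adjusted p = 0.00545), and the rise with DSS in WT passed at the same 0.87 (adjusted p = 0.00210). The WT rise also passed without untreated TG replicate 3 (adjusted p = 0.0258) and, with no single library left out, in DESeq2 (adjusted p = 0.0162), in a fit to the groups compared alone (adjusted p = 0.00343) and with no low-count filter (adjusted p = 0.0490).

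The gene length that RSEM lists for each library, which moves with the mix of transcripts assigned to a gene, also differed for Aqp4. It was 5126 to 5141 bases in the 6 untreated libraries and 5155 to 5180 bases in the 4 DSS libraries, so that the groups did not overlap, as for 4.60% of the 4043 genes whose listed length varied. This column was looked at after its values were seen, and the other members' lengths were constant within 1 base or, for Slc20a1, overlapped between the groups.

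The water channels traded places between groups on the FPKM scale, a ratio that was chosen after its values were seen and carries no test. Aqp4 stood at 0.416 ± 0.0728 (SD, n = 3) of Aqp8 in untreated WT and at 0.769 ± 0.160 (SD, n = 3) in untreated TG. After DSS it was 2.2 ± 0.39 (SD, n = 2) in WT and 0.527 ± 0.0754 (SD, n = 2) in TG. Aqp4 exceeded Aqp8 in both WT libraries after DSS and in none of the other 8.

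**Figure D2:**
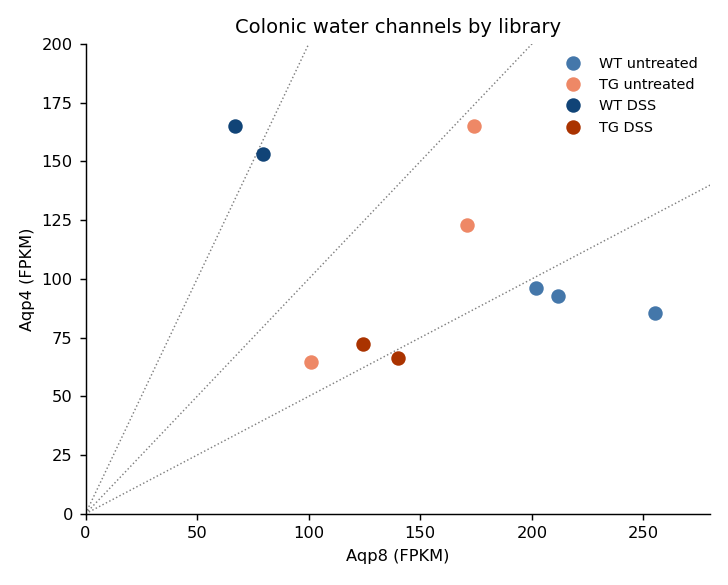
Aqp4 (y axis, FPKM) against Aqp8 (x axis, FPKM), 1 point per library, coloured by group. Dotted lines through the origin mark Aqp4 to Aqp8 ratios of 0.5, 1 and 2, and only the WT libraries after DSS (ratios 1.93 and 2.47) lie above the line of equal levels.

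Car1 (Entrez 12346, chr3:14766214-14808365) and Car2 (Entrez 12349, chr3:14886269-14900770) encode cytosolic carbonic anhydrases and lie 77904 bases apart. Car1 was 7053, 9448 and 8895 CPM in untreated WT and 4430, 7645 and 7653 CPM in untreated TG. The DSS libraries held 5189 and 2886 CPM in WT and 8481 and 6392 CPM in TG. Both WT libraries after DSS lay below all untreated WT and all TG libraries except untreated TG replicate 1. Car1 fell with DSS in WT (log2 fold change -1.07, SE 0.31, adjusted p = 0.0353). That call was lost without untreated WT replicate 1, 2 or 3 (adjusted p = 0.0545, 0.0992 and 0.0893) and without WT DSS replicate 2, where the value was -0.71 (adjusted p = 0.241).

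Car2 was 1393, 1183 and 1318 CPM in untreated WT and 1248, 1085 and 1086 CPM in untreated TG. After DSS it was 783 and 519 CPM in WT and 1096 and 926 CPM in TG. The WT libraries after DSS were the lowest of all 10, and the other groups lay near each other. Car2 fell with DSS in WT (log2 fold change -1.0, SE 0.18, adjusted p = 0.00550), and the difference in TG was -0.17 (SE 0.17, adjusted p = 0.649). TG and WT differed after DSS by 0.64 (SE 0.19, adjusted p = 0.246), which passed without WT DSS replicate 1 (0.96, adjusted p = 0.0468). Car1 and Car2 are also enzymes of red blood cells, and 6 erythroid genes, haemoglobins among them, summed to 174 to 310 CPM in untreated WT, 382 to 627 in untreated TG, 9.67 to 12.6 in WT after DSS and 61.8 to 203 in TG after DSS. Of the 5 that were tested, 5 fell with DSS in WT, 3 fell with DSS in TG and 3 were higher in TG than in WT after DSS. The part of blood in the Car1 and Car2 differences was not tested.

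Car4 (Entrez 12351, chr11:84957754-84966054) encodes the carbonic anhydrase anchored on the outer face of the brush border. It was 569, 564 and 550 CPM in untreated WT and 269, 325 and 387 CPM in untreated TG. In DSS libraries Car4 was 309 and 381 CPM in WT and 637 and 653 CPM in TG. Libraries of TG after DSS were the highest and exceeded every untreated WT library, and the groups overlapped only between untreated TG and WT after DSS. Car4 was lower in TG than in WT untreated (log2 fold change -0.78, SE 0.14, adjusted p = 0.0175). It fell with DSS in WT (-0.70, SE 0.16, adjusted p = 0.0131) and rose with DSS in TG (0.98, SE 0.15, adjusted p = 0.00484), and the responses differed by 1.68 (SE 0.22, adjusted p = 0.00776). After DSS the TG excess was 0.90 (SE 0.17, 95% interval 0.53 to 1.28), short of the threshold at an adjusted p of 0.0869.

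Single libraries decided some of these Car4 calls. The lower level in untreated TG lost its call without untreated WT replicate 1, 2 or 3 (adjusted p = 0.0662, 0.0802 and 0.0707) or untreated TG replicate 2 (adjusted p = 0.0634), with log2 fold changes of -0.79 to -0.81. The fall in WT was lost without WT DSS replicate 1 (-0.56, adjusted p = 0.0663), the rise in TG without TG DSS replicate 2 (0.96, adjusted p = 0.0565) and the difference of responses without TG DSS replicate 1 (1.70, adjusted p = 0.0507). The TG excess after DSS passed without untreated TG replicate 1 (adjusted p = 0.0190), as did that of Aqp8 (adjusted p = 0.0186) and the deficit of Aqp4 (adjusted p = 0.0190). That library is in neither group of this comparison, and the log2 fold changes stayed at 0.90, 0.94 and -1.12. The share of all genes tested that passed rose with its removal from 0.185% to 1.03%. Car4 is also made by endothelium of some organs, and 5 endothelial markers summed to 1.64 to 4.78 CPM over all libraries. Of the 2 that were tested, 1 fell with DSS in WT (Pecam1, -1.87, adjusted p = 0.0140). The part of endothelium in the Car4 differences was not tested.

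Slc26a3 (Entrez 13487, chr12:31433142-31473922) encodes the apical chloride-bicarbonate exchanger, also called DRA. It was 893, 841 and 912 CPM in untreated WT and 295, 602 and 568 CPM in untreated TG. With DSS its level was 352 and 259 CPM in WT and 470 and 348 CPM in TG. All untreated WT libraries lay above all others, which overlapped among themselves. Slc26a3 fell with DSS in WT (log2 fold change -1.53, SE 0.29, adjusted p = 0.00641), a call that was lost without WT DSS replicate 2 (-1.33, adjusted p = 0.0651). The untreated TG libraries were lower than WT by -0.85 (SE 0.24), which missed the threshold with edgeR (adjusted p = 0.0864) and passed with DESeq2 (adjusted p = 0.0121). Without untreated TG replicate 1 the difference was -0.59.

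Slc26a2 (Entrez 13521, chr18:61196854-61211596) encodes a sulphate transporter that supplies sulphate for mucins and proteoglycans. It was 532, 549 and 536 CPM in untreated WT and 278, 344 and 408 CPM in untreated TG. The WT libraries after DSS had 297 and 196 CPM, and the TG ones 330 and 262 CPM. As for its relative, the untreated WT libraries lay above all others. Slc26a2 fell with DSS in WT (log2 fold change -1.13, SE 0.21, adjusted p = 0.00573). The TG difference without DSS was -0.65 (SE 0.18, adjusted p = 0.0773), and it passed with DESeq2 (adjusted p = 0.0149), with total-count scaling (adjusted p = 0.0467), with limma on log2 FPKM (adjusted p = 0.0465) and without either library of WT after DSS (adjusted p = 0.0398 and 0.0395).

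Slc9a3 (Entrez 105243, chr13:74086255-74169442) encodes the apical sodium-proton exchanger, also called NHE3. It was 153, 128 and 124 CPM in untreated WT and 133, 150 and 220 CPM in untreated TG. Under DSS the level was 66.2 and 40.7 CPM in WT and 67.4 and 68.6 CPM in TG. All 4 DSS libraries lay below all 6 untreated ones, whatever the genotype. Slc9a3 fell with DSS in WT (log2 fold change -1.33, SE 0.25, adjusted p = 0.00631) and in TG (-1.30, SE 0.25, adjusted p = 0.0142), and the difference between the responses was 0.04 (SE 0.34, adjusted p = 0.979). The WT call was lost without WT DSS replicate 2 (-1.03, adjusted p = 0.0547), and the TG call without TG DSS replicate 1 (adjusted p = 0.119) or 2 (adjusted p = 0.138).

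Atp12a (Entrez 192113, chr14:56364669-56388551), the proton-potassium pump, was 357, 458 and 385 CPM in untreated WT and 153, 159 and 152 CPM in untreated TG. With DSS the pump was at 397 and 316 CPM in WT and 285 and 374 CPM in TG. The untreated TG libraries lay close together and below all others, and the other groups overlapped. Atp12a was lower in TG than in WT untreated (log2 fold change -1.37, SE 0.14, adjusted p = 0.00159), a call that held under all 20 alternative settings. It rose with DSS in TG (1.09, SE 0.15, adjusted p = 0.00316), which was lost without TG DSS replicate 2 (0.88, adjusted p = 0.0522). In WT the DSS difference was -0.17 (SE 0.16, adjusted p = 0.505), and after DSS the genotypes differed by -0.11 (SE 0.17, adjusted p = 0.846).

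The response of Atp12a to DSS differed between the genotypes by 1.26 (SE 0.22, adjusted p = 0.0351), a call that was lost in 10 of 19 alternatives. Among them were fits without untreated WT replicate 1, 2 or 3 (adjusted p = 0.0653, 0.0676 and 0.0932), untreated TG replicate 2 or 3 (0.0729 and 0.0907), WT DSS replicate 2 (0.106) and TG DSS replicate 1 or 2 (0.0598 and 0.145). Its log2 value stayed between 1.04 and 1.44.

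Slc20a1 (Entrez 20515, chr2:129198773-129211615) encodes a sodium-phosphate cotransporter found in most cell types. It was 396, 552 and 579 CPM in untreated WT and 219, 213 and 208 CPM in untreated TG. After DSS it was 142 and 85.4 CPM in WT and 178 and 118 CPM in TG. The untreated WT libraries were the highest, untreated TG came next, and the DSS libraries of both genotypes were lowest and overlapped. Slc20a1 was lower in TG than in WT untreated (log2 fold change -1.26, SE 0.22, adjusted p = 0.0170). That call was lost without untreated WT replicate 2 or 3 (adjusted p = 0.0782 and 0.0732) or untreated TG replicate 2 or 3 (adjusted p = 0.0636 and 0.0553). It fell with DSS in WT (-2.16, SE 0.26, adjusted p = 6.89e-04), the largest fold of any member in any comparison, and the TG difference was -0.53 (SE 0.24, adjusted p = 0.264). Slc20a1 also had the widest range over libraries, 6.78-fold from the lowest to the highest, against 2.43-fold for Car4.

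The first comparison asks how the transgene alone goes with transport gene levels. In untreated mice 3 of the 10 members were lower in TG and 0 were higher, where 3.70% of all genes tested passed (2.26% higher and 1.44% lower). The members' median log2 fold change was -0.58, and that of all genes -0.02. The libraries of the genotypes did not overlap for 6 members, all lower in TG, against 32.1% of all genes tested (16.7% higher and 15.5% lower). Car2 (-0.19), Car1 (-0.36), Aqp4 (0.44) and Slc9a3 (0.31) overlapped. Without untreated TG replicate 1 the members' median was -0.41, and the log2 values of Aqp4 (0.73), Slc26a3 (-0.59), Car1 (-0.15) and Aqp8 (-0.30) moved most. Leaving out untreated WT replicate 2 or 3 or untreated TG replicate 2 left 1 member called. The summed level of 6 goblet cell markers was 8991 to 23568 CPM in untreated WT and 26519 to 38301 in untreated TG. Of these 6 genes 1 passed, Spink4 (1.66, adjusted p = 0.00322). The others were Clca1 (1.73), Fcgbp (1.19), Muc2 (0.57), Tff3 (0.10) and Zg16 (-0.14), at adjusted p 0.0634 to 0.858. Of the 6 colon position markers 2 were lower in untreated TG, Hoxd13 (39.2 to 42.6 CPM in WT and 15 to 21.1 CPM in TG, -1.25, adjusted p = 0.00710) and Hoxd10 (-1.40, adjusted p = 0.0361). The part of cell composition and of position along the colon in these differences was not tested.

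The second comparison asks how DSS goes with the same genes in WT mice. Of the 10 members, 8 fell and 0 rose, where 19.8% of all genes tested passed (10.2% higher and 9.62% lower). The members' median was -1.10 and that of all genes 0.00. Besides the 8 that fell, Aqp4 was higher in both DSS libraries (0.87, adjusted p = 0.0559) and Atp12a overlapped (-0.17). For 9 members the groups did not overlap, 8 lower and Aqp4 higher, against 57.4% of all genes tested (28.4% higher and 29.0% lower). The falls of Aqp8, Car2, Slc26a2 and Slc20a1 passed under all 20 alternatives, and 5 members passed without WT DSS replicate 2. Cell markers moved too. The 6 crypt and cycling markers summed to 253 to 283 CPM in untreated WT and 429 to 1024 after DSS. The 3 cycling markers Mki67 (1.76), Top2a (1.82) and Ccnb1 (1.69) were higher. The 3 crypt base markers Lgr5 (-1.55), Ascl2 (-1.99) and Axin2 (-1.39) were lower. The 5 surface colonocyte markers that are no members summed to 13424 to 14839 CPM in untreated WT and 15268 to 21574 after DSS. Of these, Lypd8 was higher (0.70, adjusted p = 0.0148), Emp1 was lower (-0.76, adjusted p = 0.0311) and Krt20 was at -0.20 (adjusted p = 0.484). Of the 6 colon position markers 1 was lower, Hoxd12 (-1.57, adjusted p = 0.0414). Of the 6 small-intestinal markers that were tested, Slc10a2 (-1.85, adjusted p = 0.00977) and Fabp2 (-1.40, adjusted p = 0.0124) were lower and Fabp6 (2.01, adjusted p = 0.0257) was higher. The part of cell composition, of position along the intestine and of sex in the falls was not tested.

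In TG mice, Car4 and Atp12a rose and Slc9a3 fell after DSS. These 3 of 10 members compare with 5.48% of all genes tested (3.33% higher and 2.15% lower), and the members' median was -0.19 against 0.01. The groups did not overlap for 4 members, the 3 above and Slc20a1, 2 higher and 2 lower in all, against 35.1% of all genes tested. Intervals for the others leave room for changes: the 95% interval of Slc26a3 ran from -0.86 to 0.35 and that of Car1 from -0.48 to 0.83. Without TG DSS replicate 2 no member passed, and 4 passed without untreated TG replicate 1, where the median was -0.33 and Slc26a3 stood at -0.52, Slc26a2 at -0.35, Aqp8 at -0.31 and Car1 at -0.04. The untreated groups of this comparison and the WT one also serve the genotype comparisons, so their values are set side by side and not correlated.

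After DSS, edgeR called 0 of 10 members between TG and WT, where 0.185% of all genes tested passed (0.178% higher and 0.00711% lower). Car1 stood at 0.88 (SE 0.33, adjusted p = 0.341) and Car2 at 0.64 (SE 0.19, adjusted p = 0.246), and limma on log2 FPKM called 0 members. DESeq2 called 3: Aqp8 (log2 fold change 0.93, adjusted p = 0.0138), Car4 (0.90, adjusted p = 3.19e-04) and Aqp4 (-1.12, adjusted p = 0.0285). It called 1.31% of all genes in its fit. The libraries did not overlap for 6 members, 5 of them higher in TG and Aqp4 lower, against 43.2% of all genes tested (22.0% higher and 21.2% lower). The members' median was 0.40, against -0.01 for all genes.

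The difference between the DSS responses passed for 2 members, Car4 and Atp12a, both with the TG response above the WT one, where 0.846% of all genes tested passed (0.526% higher and 0.320% lower). Aqp4 alone was negative (-1.56, SE 0.41, adjusted p = 0.135), and Slc9a3 was near 0 at 0.04. The members' median was 1.25, against 0.00 for all genes. Values that missed the threshold included Slc20a1 (1.64, SE 0.34, adjusted p = 0.0674) and Aqp8 (1.44, SE 0.29, adjusted p = 0.0591), and both passed with DESeq2 (adjusted p = 6.56e-04 and 5.96e-04). Without untreated TG replicate 1 there were 5 called members, Aqp8 (adjusted p = 0.00985), Aqp4 (0.00358) and Slc20a1 (0.0408) being added. The share of all genes tested that passed also rose, from 0.846% to 2.74%. Without WT DSS replicate 1 the log2 values were 1.15 for Car2, 1.24 for Slc26a2 and 2.05 for Slc20a1. Without TG DSS replicate 1 Car4 stood at 1.70 and Atp12a at 1.44, and neither kept its call.

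**Figure D3:**
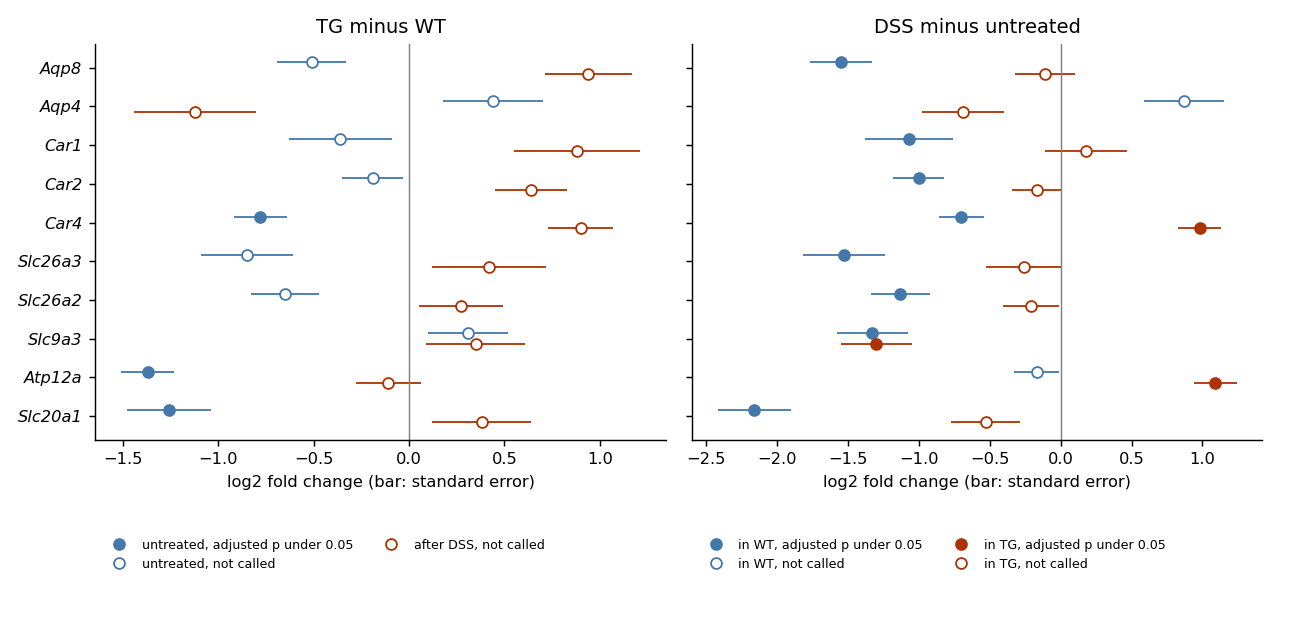
Log2 fold change (x axis) of the 10 transport genes (y axis) between genotypes (left) and with DSS (right), with bars of 1 standard error from edgeR on either side, filled where the adjusted p is under 0.05. With DSS, 8 genes lie below 0 and filled in WT, and in TG Car4 and Atp12a lie above 0 and Slc9a3 below.

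Per gene length, Car1 was the most abundant member in every group and made up 69.8 to 80.9% of the members' summed FPKM. In untreated WT the order was Car1 (mean 7576 FPKM), Car2 (752), Car4 (450), Slc26a3 (315), Aqp8 (223), Slc20a1 (169), Slc26a2 (145), Atp12a (105), Aqp4 (91.4) and Slc9a3 (56.3). Slc20a1 and Slc26a2 overlapped in that order, as did Atp12a and Aqp4, and the other neighbours did not. Car1, Car2 and Car4 had the 3 highest means in all groups, though Car2 and Car4 overlapped in WT after DSS and Car4 overlapped Slc26a3, the 4th, in untreated TG. Atp12a was last in untreated TG (38.3 FPKM), where it lay below Slc9a3 (66.1), and Aqp4 came 4th in WT after DSS (159), ahead of Slc26a3 (104) and Aqp8 (73.2). In TG after DSS Slc26a3 (133) and Aqp8 (132) could not be ordered.

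**Figure D4:**
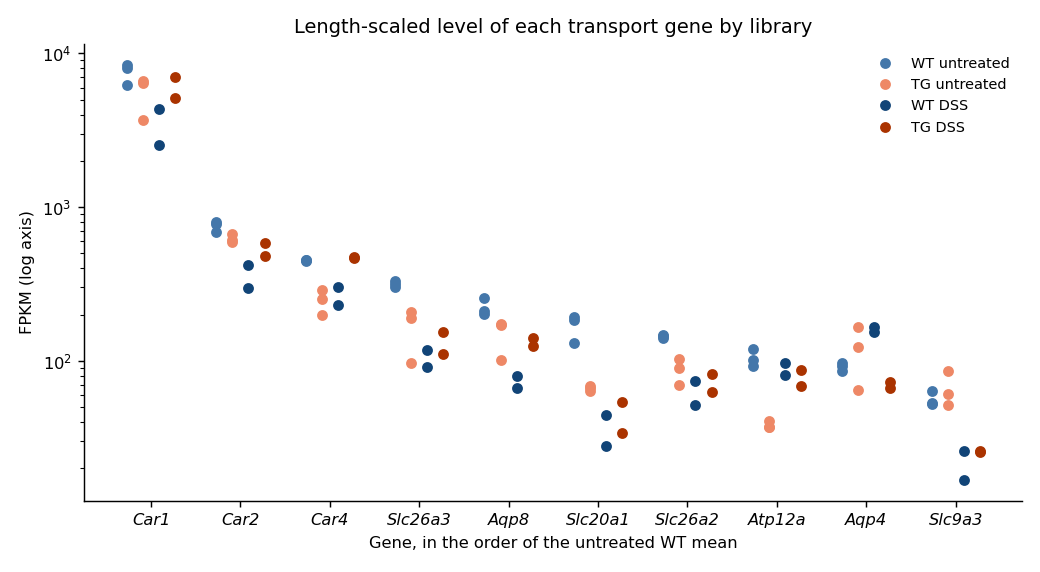
Level in FPKM (log axis) of the 10 transport genes in each group, with points for libraries. Car1 lies above all other members in every group, and Slc9a3 is lowest in 3 of the 4 groups.

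Across the 10 libraries, which share groups, sex and treatment, Slc26a3 and Slc26a2 went together most closely on log2 CPM (Pearson r = 0.97, Spearman rho = 0.94, given as a description over 10 libraries). Slc26a2 and Slc20a1 followed (r = 0.94, rho = 0.85), and Aqp8 with Slc26a3 had r = 0.88 and rho = 0.88. Aqp4 went with none of them closely: its r with the other 9 members ran from -0.57 (Car2) to -0.05 (Slc9a3), and its rho from -0.48 to 0.07.

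Outside the members, the genes whose log2 CPM was most like each member were taken from 9260 candidates over the 10 libraries, by Pearson r. For Slc26a3 they were Aldh6a1 (r = 0.987), Prss23 (0.982) and Dpyd (0.977), and Prss23 also came second for Slc26a2 (0.973), behind Hsd3b2 (0.974). For Aqp8 they were Nr1d2 (0.963), a circadian clock repressor, Snx15 (0.960) and Coq10b (0.950). Car2 was nearest to Ugt1a7c (0.977), Slc20a1 to Eno3 (0.976), Slc9a3 to Dpep1 (0.967), Car1 to Rgs2 (0.964) and Car4 to Tsku (0.933). Atp12a (Herc3, 0.930) and Aqp4 (Pcgf5, 0.885) had the least close neighbours.

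A list of 73 other genes of colonic fluid and ion transport, from other aquaporins to the guanylin system, held 56 that could be tested. In WT, 16 of the 56 (28.6%) fell with DSS and 0 rose, with a median of -0.48, where 9.62% of all genes tested fell and 10.2% rose. Slc13a1, an apical sodium-sulphate cotransporter, fell from 22.5 to 7.84 CPM (means, -1.52, SE 0.17, adjusted p = 4.30e-04). Best2, a bicarbonate channel of colonic goblet cells, fell from 41.6 to 15.7 CPM (-1.40, SE 0.23, adjusted p = 0.00352). The water channels Aqp1 (103.6 to 49.5 CPM, -1.07, SE 0.16, adjusted p = 0.00261) and Aqp11 (31.5 to 15.1 CPM, -1.06, SE 0.14, adjusted p = 9.23e-04) fell as well. By group, 2 of 3 other water channels fell, 3 of 5 chloride secretion genes, 3 of 8 proton and sodium exchangers and scaffolds, 3 of 9 genes of phosphate, sulphate and butyrate handling, 2 of 8 anion and bicarbonate exchangers, 2 of 10 basolateral transporters and 1 of 4 guanylin system genes. None of the 9 other carbonic anhydrases passed in WT, and their median was -0.56.

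In TG mice, 3 of the 56 fell with DSS and 1 rose, with a median of -0.03, and these 7.14% lie near the 5.48% of all genes tested that passed. The chloride channel Ano1 (-1.0, SE 0.16, adjusted p = 0.00644), the sulphate-activating enzyme Papss1 (-0.78, SE 0.10, adjusted p = 0.00185) and Slc13a1 (-0.72, SE 0.16, adjusted p = 0.0313) fell, and the hypoxia-inducible carbonic anhydrase Car9 rose from 73.9 to 111.7 CPM (0.60, SE 0.12, adjusted p = 0.0172). Calls of Ano1 and Car9 were lost without TG DSS replicate 1 (adjusted p = 0.0856 and 0.0891) or 2 (0.0538 and 0.172), and that of Car9 also without untreated TG replicate 3 (0.0637). Slc13a1 lost its call in 7 of 10 fits that each left out 1 library: untreated WT replicate 1, 2 or 3, untreated TG replicate 2 or 3, or TG DSS replicate 1 or 2 (adjusted p 0.0535 to 0.242).

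Between genotypes 1 of the 56 (1.79%, against 3.70% of all genes tested) was higher in TG untreated, the potassium channel subunit Kcne3 (128.4 to 199.3 CPM, 0.63, SE 0.14, adjusted p = 0.0325), and 1 after DSS (against 0.185% of all genes tested), Aqp1 (49.5 to 121.8 CPM, 1.30, SE 0.18, adjusted p = 0.0342). Each was lost in 12 of 20 alternatives, and in untreated mice total-count scaling and log2 FPKM called 0 of the list higher and 2 lower. For Kcne3 these included the fits without untreated WT replicate 1, 2 or 3, untreated TG replicate 2, or TG DSS replicate 1 or 2 (adjusted p 0.0537 to 0.159). For Aqp1 they included the fits without untreated WT replicate 1 or 3 or any 1 of the 4 DSS libraries (adjusted p 0.0503 to 0.222). The DSS responses differed for Best2 (1.85, SE 0.31, adjusted p = 0.0294) and Aqp11 (1.02, SE 0.19, adjusted p = 0.039), with a median of 0.39 over the 56, and these 2 (3.57%) compare with 0.846% of all genes tested. Both calls were lost without untreated WT replicate 1 or 3, untreated TG replicate 2 or 3, WT DSS replicate 2, or TG DSS replicate 1 or 2 (adjusted p 0.0649 to 0.187), and that of Aqp11 also without untreated WT replicate 2 (0.0870).

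**Figure D5:**
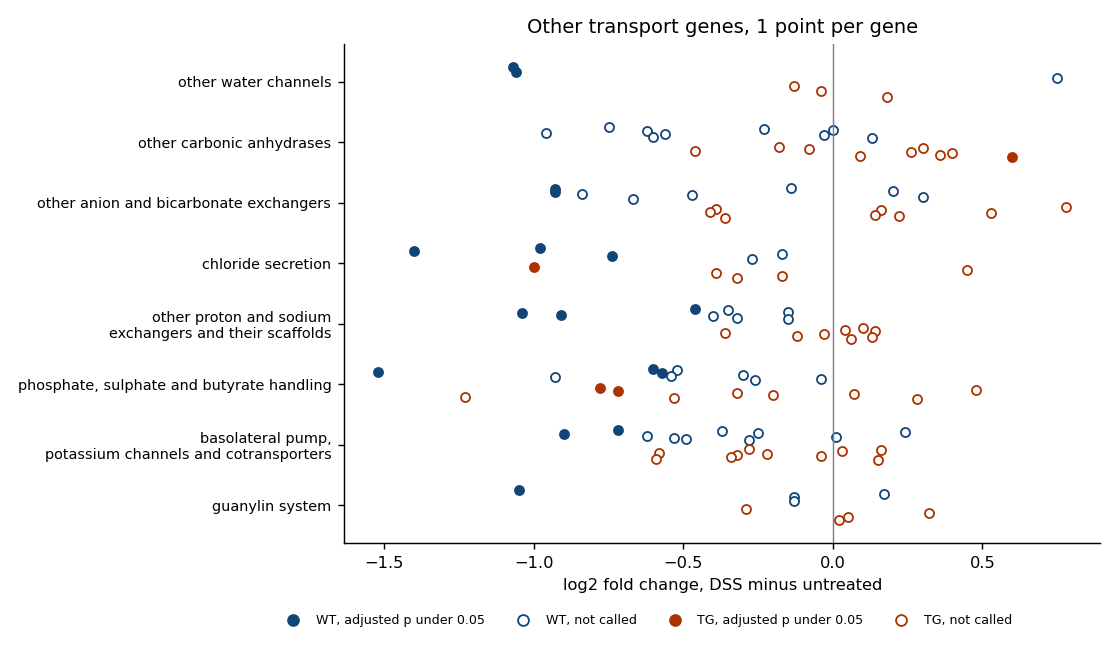
Log2 fold change with DSS (x axis) of the 56 other transport genes tested, by functional group (y axis), 1 point per gene and genotype, filled where edgeR's adjusted p is under 0.05. In WT 16 filled points lie below 0 and none above, and in TG 3 lie below and 1 above.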

How the data were processed

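The 10 poly-A libraries were grouped by their labels. Each library's table, as deposited by the authors, lists genes with their length, FPKM and expected count (per the file headers). RSEM 1.2.12, Bowtie2 2.2.5, HISAT2 2.0.4 and the mm10 build come from the submitters' processing notes, which are used here without roles. Genes missing from a table were set to 0. After rounding of the expected counts and TMM scaling, filterByExpr (minimum count 10, minimum total 15) left 14072 genes. The 4 group means of all 10 libraries were fitted together by quasi-likelihood (edgeR 4.0.16, R 4.3.3), with 6 residual degrees of freedom and a biological coefficient of variation of 0.171. A gene passed at a Benjamini-Hochberg adjusted p under 0.05 over all genes tested, and was called higher or lower by sign. DESeq2 1.42.0, limma 3.58.1 on log2 of the deposited FPKM plus 1 or 0.1, other scalings and filters, fits to fewer libraries and a replicate block were alternatives. The counts' precision is limited by 15393859 to 18284704 counts per library. The edgeR fit was tested on simulated data with known changes. All 10 members are named. Of the other transport genes, up to 4 per comparison and direction with the largest called change and a mean of at least 5 CPM are named, and the 3 genes with the highest Pearson r over candidates with a mean of at least 10 CPM were taken for each member. The members and all lists were chosen with earlier results of these data known.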

Additional observations from a re-analysis of the deposited data

Results flagged for a closer look

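The DSS response of Car4 in TG exceeded that in WT by 1.68 on the log2 scale by edgeR's test of the difference (SE 0.22, adjusted p = 0.00776), with opposite signs in the genotypes (0.98 and -0.70). The DSS response of Atp12a differed likewise, by 1.26 (SE 0.22, adjusted p = 0.0351), with 1.09 in TG and -0.17 in WT. The Atp12a call was lost in 10 of 19 alternatives, and that of Car4 without TG DSS replicate 1. For both genes the DSS responses also compare female with male libraries, so DSS and sex cannot be told apart.

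A difference appeared in a column that no comparison of expression used, the listed gene length. For Aqp4, with 9 transcripts in the annotation, the DSS libraries exceeded the untreated ones by a mean of 30.9 bases. An exact two-sided permutation test over 210 arrangements gave p = 0.00476, the smallest the design allows, unadjusted. Aqp4 was chosen after its groups were seen not to overlap, so this p adds no support. Listed lengths did not overlap for 4.60% of the 4043 genes whose length varied. Sex and DSS cannot be told apart here, and individual transcripts were not measured.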

How the results depend on the processing

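Of 990 values of single members under alternatives, 914 kept direction and side of the threshold, 33 lost and 33 gained a call, and 10 changed sign, none of them called. Signs changed, with 1 library left out, for Atp12a between genotypes after DSS (range -0.32 to 0.07, with 0.06 without WT DSS replicate 1 and 0.07 without TG DSS replicate 1) and Slc26a2 (-0.001 to 0.60, the lowest without WT DSS replicate 2), for DSS in TG for Car1 (-0.04 to 0.37, the lowest without untreated TG replicate 1 and without TG DSS replicate 1) and Aqp8 (-0.31 to 0.03, the highest without untreated TG replicate 3), and for the difference of responses of Slc9a3 (-0.05, -0.11, -0.02 and -0.27 without untreated WT replicate 1, untreated TG replicate 1 or 2, and WT DSS replicate 2, up to 0.43). In the order TG against WT untreated and after DSS, DSS in WT and in TG, and difference of responses, calls were 3, 0, 8, 3 and 2 members, 1, 1, 16, 4 and 2 of the other transport genes, and 520, 26, 2788, 771 and 119 of all genes. Leaving out 1 library gave 1 to 4, 0 to 3, 5 to 9, 0 to 4 and 0 to 5 members, 0 to 3, 0 to 4, 11 to 19, 1 to 6 and 0 to 7 other transport genes, and 58 to 730, 4 to 145, 970 to 4112, 173 to 1677 and 24 to 424 of all genes. DESeq2 called 5, 3, 9, 3 and 6 members, 6, 7 and 6 other transport genes in both genotype comparisons and the difference, and 1052, 254, 3128, 1203 and 426 of all genes. With the replicate block, 3, 0, 7, 2 and 1 members, 0, 0, 2 and 1 other transport genes (without DSS in WT) and 166, 7, 1614, 356 and 41 of all genes passed. Correlations of same-numbered deviations from the group means were 0.08, -0.01 and -0.19 untreated and 0.21 after DSS. Across treatments they were -0.01 and -0.09 in WT and -0.29 and -0.22 in TG. Deviations in a group of 2 mirror each other, so these values cannot decide whether the numbers pair the samples. Fitting only the groups compared gave 0, 0 and 2 other transport genes in both genotype comparisons and DSS in TG, and 8 and 395 of all genes after DSS between genotypes and for DSS in TG. Total-count scaling gave 2 and 0 other transport genes between genotypes and 7 of all genes after DSS, and log2 FPKM gave 2 and 0, with 9 (pseudocount 1), 8 (0.1) and 12 (no filter). For the difference of responses, no low-count filter gave 4 members, and unfiltered log2 FPKM gave 1 member and 1 other transport gene. Against 318 higher and 202 lower genes in untreated TG, total-count scaling gave 235 and 382, and log2 FPKM 225 and 331, 218 and 312, and 169 and 272. Against 1434 and 1354 with DSS in WT these were 1146 and 1700, then 990 and 1573, 956 and 1562, and 918 and 1496. The cause of these changes was not tested. Groups of 2 or 3 libraries limit all tests.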
